A study of Mus musculus with 21 samples.

Results

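Levels of mRNA in mouse oocytes were described for 9 maternal mRNA decay genes of deadenylation, decapping and poly(A) binding: Btg4, Cnot6l, Cnot7, Cnot8, Zfp36l2, Pabpn1l, Pabpc1l, Dcp1a and Dcp2. Decay itself, tail length and protein were not measured. The 9 genes were chosen by their known function from the 54232 genes of the count table, of which 54079 had a symbol. All 9 passed the filter, which asked for counts in 3 or more libraries. The list was drawn up with results of these libraries known, and Pabpn1l was selected on its measured level. Differences of Pabpn1l between groups are therefore given as description without a p-value. Counts of genes that passed a test cover the other 8, unless 9 are named.

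An oocyte that has finished growing stops transcription and carries a stock of stored mRNA. When meiosis resumes, much of that stock is deadenylated and destroyed, and the products of the decay genes are themselves stored or translated from dormant mRNA. BTG4 is an adaptor that brings the CCR4-NOT deadenylase to mRNAs, CNOT6L, CNOT7 and CNOT8 are its catalytic subunits, and ZFP36L2 is an adaptor that binds AU-rich elements. PABPN1L is a germline poly(A)-binding protein that works with BTG4, PABPC1L (ePAB) is the cytoplasmic poly(A)-binding protein of oocytes, and DCP1A and DCP2 are the cofactor and the catalytic subunit of the decapping enzyme.

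The libraries came from fully grown germinal vesicle (GV) oocytes, which rest in prophase before meiosis resumes, of C57BL/6-background mice that carried altered alleles of Kif11, the gene of a spindle motor kinesin. In the allele names wt is wild type, fl is floxed and del is deleted. Each library held 3 oocytes. Females were 3 to 4 months old and received eCG or HyperOva 48 h before collection. There were 4 wt/fl libraries, which served as controls and carried a floxed allele but no Cre, and 5 libraries of wt/fl with Spo11-Cre (wt/fl Spo11-Cre). The fl/del genotype had 4 libraries without Cre (fl/del) and 4 with it (fl/del Spo11-Cre), and the fl/fl genotype had 2 libraries for each of Gdf9-Cre and Zp3-Cre. Spo11-Cre acts early in meiotic prophase, whereas Gdf9-Cre and Zp3-Cre are other oocyte-specific drivers. No wt/wt oocytes and no Gdf9-Cre or Zp3-Cre controls without the homozygous floxed allele were analysed here. The Cre-free libraries share a letter in their names and the Spo11-Cre libraries carry other letters, and the fl/fl libraries form a set of their own, so library set, Cre driver and, for fl/fl, genotype cannot be told apart. Spo11-Cre also deletes the floxed Kif11 copy, so the Cre itself and the loss of that copy cannot be told apart either. The study's methods state that a mouse gave 1 or 2 replicates, so some libraries of a group share an animal, and SDs and p-values measure the spread between libraries. Library names hold 2 prefixes in each of wt/fl, fl/del and fl/del Spo11-Cre and 3 in wt/fl Spo11-Cre. Whether a prefix marks an animal is not stated, and the fl/fl names give only the driver.

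Library totals ranged from 7205010 to 18454549 counts and were lowest in the fl/fl and 1 fl/del library. Kif11 was measured at 23.8 to 43.2 CPM (counts per 1000000 counts of the library) in wt/fl, 17.6 to 30.5 in wt/fl Spo11-Cre, 7.49 to 14.6 in fl/del and 1.08 to 2.70 in fl/del Spo11-Cre. In fl/fl oocytes it stood at 4.90 and 5.11 CPM where Gdf9 drove Cre and at 4.27 and 7.95 CPM where Zp3 did. All 12 oocyte markers listed were detected, with summed levels of 24969 to 32064 CPM per library. The 18 markers of follicle cells summed to 73.5 to 127 CPM in every library, and 15 of them had a count. Cyp19a1 (median 66.3 CPM, 21 of 21 libraries) and Nr5a2 (27.7 CPM, 21 of 21) made up most of that sum, and Foxl2, Ptx3 and Tnfaip6 had no count.

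The cDNA was primed on the poly(A) tail, and dormant maternal mRNAs keep short tails that are lengthened through elements near the 3′ end. Fewer molecules, a shorter tail and less RNA per oocyte therefore cannot be told apart in these counts. The last 100 bases of the longest coding transcript of each gene (GENCODE M21, GRCm38) were searched on the transcript strand for a poly(A) signal, AATAAA or ATTAAA, and for a cytoplasmic polyadenylation element (CPE), read as TTTTAT or TTTTAAT or TTTTAAAT. A poly(A) signal was found in 8 of the 9 genes, all but Btg4, against 78.5% of 19934 genes. A CPE was found in 4 of 9, Btg4, Cnot7, Cnot8 and Dcp1a, against 19.6% of those genes. These are matches of letters and not shown sites. The 30-base windows of 8 genes that hold such matches lie at or near the annotated end of the transcript searched. They are given with the poly(A) signal and the CPE in capitals. Where the tail is added was not tested, and for Cnot7 the annotated gene runs on to 40492540. In Dcp1a a CPE and the signal overlap, and a further TTTTAT lies 67 bases before the end, outside the window. Dcp2 is named only.
Btg4 (chr9:51119809-51119838, plus strand): TTTTATgtctttttaaaagtttgatttaca
Cnot6l (chr5:96070333-96070362, minus strand): taggcAATAAAtggccattttgcaaccgca
Cnot7 (chr8:40493036-40493065, minus strand): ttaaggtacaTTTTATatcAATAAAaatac
Cnot8 (chr11:58118557-58118586, plus strand): TTTTAATtttgtaaAATAAAgattgctttt
Zfp36l2 (chr17:84183931-84183960, minus strand): tttgtagtttcccccAATAAAattttttgg
Pabpn1l (chr8:122619471-122619500, minus strand): aatgtaaattATTAAActtgaatatatttt
Pabpc1l (chr2:164050509-164050538, plus strand): ctttatatATTAAAaaatgctgcaaaaatc
Dcp1a (chr14:30527013-30527042, plus strand): atatatttTTTTAATAAAatttcaaaacca

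Per transcript length, Btg4 was the most abundant of the 9 mRNAs in wt/fl oocytes, at 3747 ± 315 TPM (transcripts per 1000000; SD, n = 4), rank 23 of 22281 genes with a TPM above 0. Pabpn1l followed at 1491 ± 254 TPM and rank 84. The catalytic subunits Cnot8 and Cnot7 stood close together at 192 ± 18.1 and 187 ± 11.5 TPM, and Cnot6l was lower at 73.6 ± 5.88 TPM. Pabpc1l was measured at 114 ± 24.0 TPM and Dcp1a at 67.9 ± 2.34 TPM, whereas Dcp2 reached 17.9 ± 3.07 TPM. Zfp36l2 was near the floor, at 1.30 ± 0.791 TPM and rank 13011. In this order Cnot8 and Cnot7, and Cnot6l and Dcp1a, were neighbours that differed by less than the larger of their SDs.

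**Figure D1:**
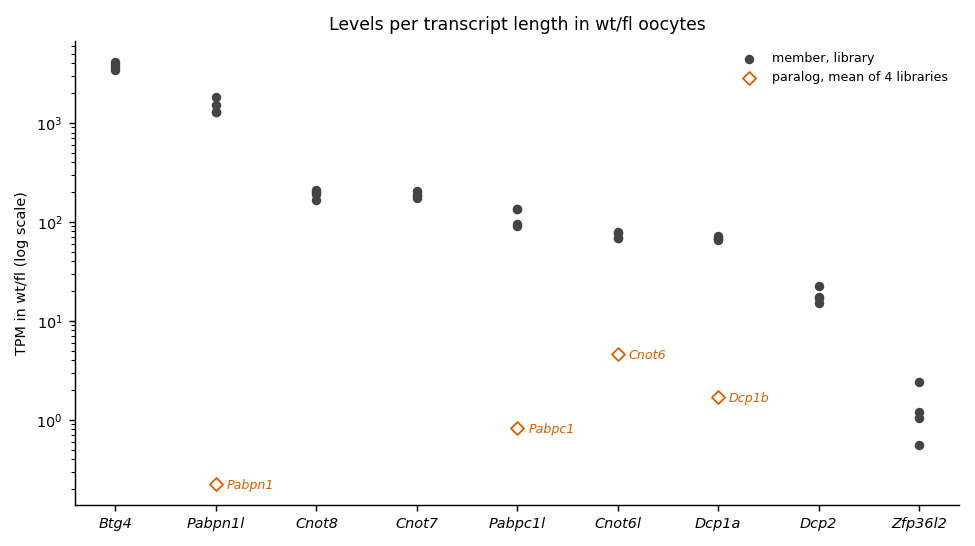
TPM in the 4 wt/fl libraries (points, log axis) of each decay gene in order of level. Open diamonds give the mean TPM of a paralog for Cnot6l, Pabpn1l, Pabpc1l and Dcp1a only. No paralog is drawn for the other genes, among them Zfp36l2. Btg4 lies at 3747 TPM on average and Zfp36l2 at 1.30, and each paralog drawn lies below its member.

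Cnot6l, Pabpn1l, Pabpc1l and Dcp1a were measured at higher TPM than the paralogs beside them. The paralogs Cnot8 and Cnot7 stood near 1 to 1 (ratio 1.03 in wt/fl, Cnot8 share 37.6 to 53.4% over the 21 libraries). Cnot6l exceeded Cnot6 by 15.8 times in wt/fl TPM and made up 87.8 to 95.1% of the pair's TPM over the 21 libraries. Pabpc1l exceeded Pabpc1, the somatic cytoplasmic poly(A)-binding protein, by 138 times (96.7 to 99.7% of the pair). Pabpn1, the nuclear counterpart of Pabpn1l, averaged 0.226 TPM in wt/fl. Dcp1b averaged 1.70 TPM, so that Dcp1a held 94.5 to 99.1% of that pair. Only uniquely mapped reads were counted, so reads that paralogs share were left out, and the part of this in the values was not tested. Cnot7 shares 247 exon bases with Zdhhc2, which averaged 0.345 CPM. Exon overlap with other genes was looked up for the decay genes and not for Cnot6, Pabpn1, Pabpc1 and Dcp1b. Whether such overlap lowered the counts of these paralogs was not tested.

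Btg4 is ENSMUSG00000032056 (GRCm38, chromosome 9, 51060901 to 51119875, plus strand). Across all 21 libraries it varied little, with a coefficient of variation of 6.44%, against a median of 17.5% over 7755 genes with a mean of at least 10 CPM. Those genes were not matched to Btg4 in level. Its lowest library held 3479 CPM (fl/del) and its highest 4387 CPM (wt/fl), and group means lay between 3810 CPM in fl/del Spo11-Cre and 4158 CPM in fl/fl Gdf9-Cre. Pabpn1l, selected on its level, was more variable than Btg4, with a coefficient of variation of 26.1% and a 3.12-fold range. The coefficient was 54.3% for Zfp36l2, 24.9% for Dcp1a, 21.1% for Pabpc1l and 15.3 to 19.1% for the remaining genes. The plot of CPM by group shows these levels side by side.

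**Figure D2:**
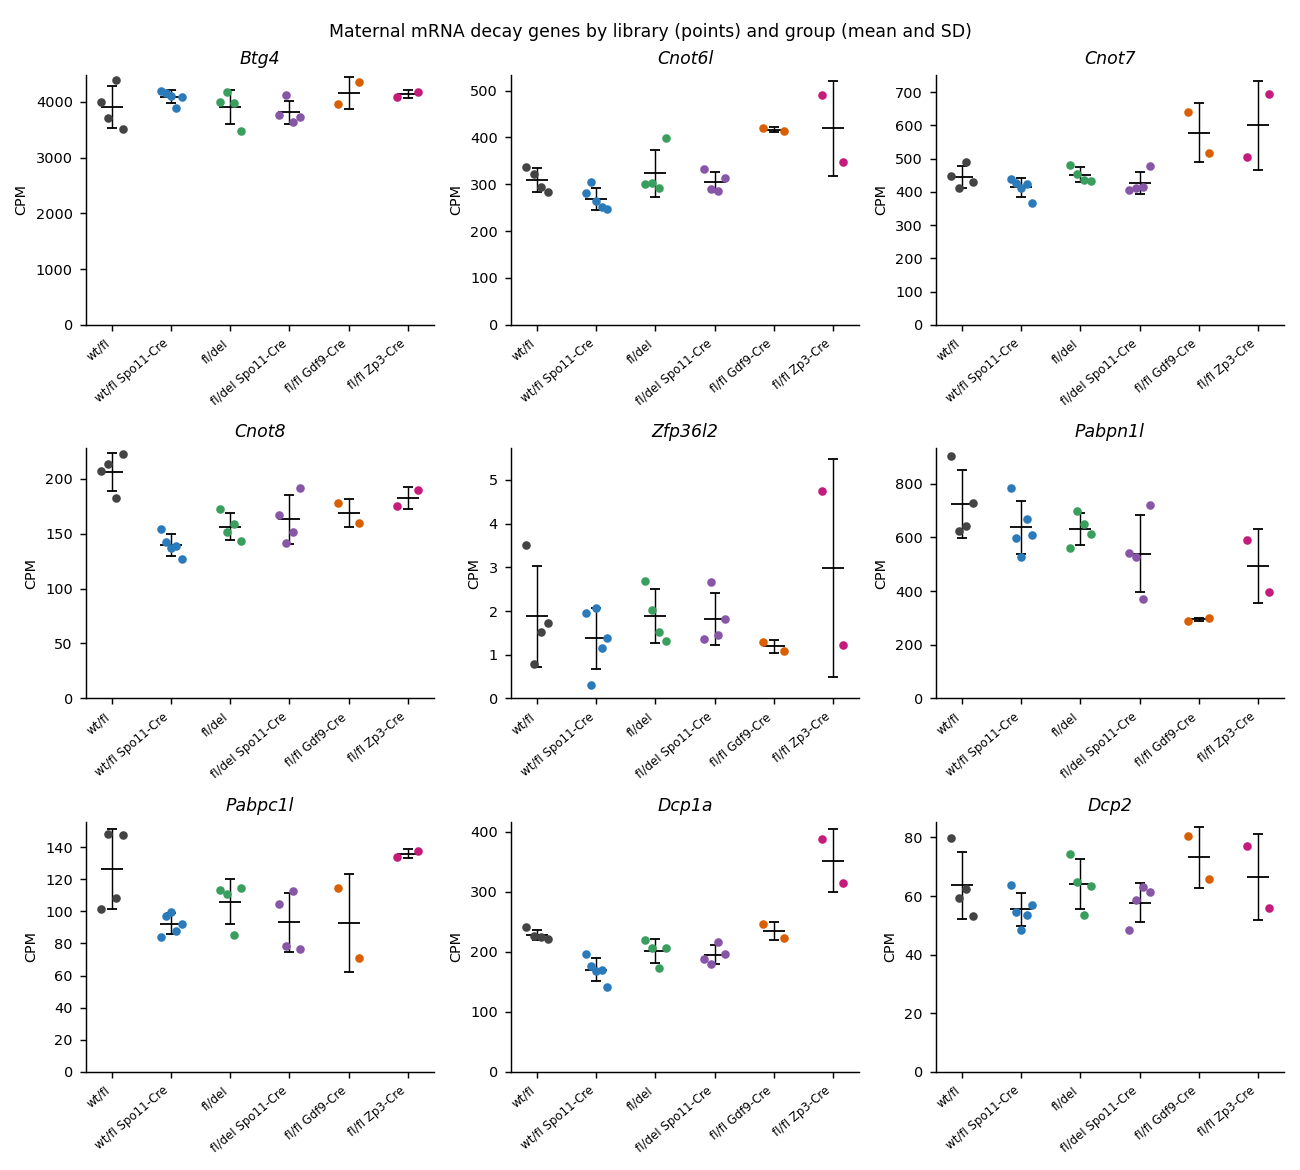
CPM of each of the 9 genes (1 panel per gene, linear axis from 0) in every library (points), by group, with the group mean and SD (bars). Btg4 is level across groups, Cnot8 and Dcp1a are lower in wt/fl Spo11-Cre than in wt/fl without overlap, and Pabpn1l is lowest in the 2 fl/fl Gdf9-Cre libraries.

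Oocytes that keep a wild-type Kif11 copy were compared as wt/fl Spo11-Cre with wt/fl, which differ by the Cre together with the floxed copy it deletes. Of the 8 genes other than Pabpn1l, 3 fell, Cnot8, Dcp1a and Pabpc1l (edgeR quasi-likelihood test, Benjamini-Hochberg adjusted p under 0.05 over all genes), and none rose. Over all 22383 genes tested 2.19% were called in either direction and 1.33% were called lower. In CPM the groups did not overlap for those 3 genes, against 4.95% of all genes, and 4 of 8 had an unadjusted p under 0.05, against 15%. DESeq2 called the same 3 genes, where it called 9.94% of the genes it tested. Fitted changes were below 0 for 7 of 8 genes with a median log2 fold change of −0.29, where the median of all genes was 0.03.

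In the Cre-free fl/del oocytes, which carry a deleted Kif11 allele, 0 of the 8 passed against wt/fl in edgeR, where 0.0223% of all genes did, and DESeq2 called 1, Cnot8, where it called 0.255% of genes. An unadjusted p under 0.05 was found for 1 of 8 (8.52% of all genes). The groups did not overlap for Cnot8 and Dcp1a, both lower in fl/del, against 2.99% of all genes. The median log2 fold change of the 8 was 0.02. In fl/del Spo11-Cre, which lost most Kif11 mRNA, edgeR again called 0 of 8 against wt/fl (0.197% of all genes) and DESeq2 called 1, Cnot8 (1.56% of genes). Without wt/fl replicate 1 the edgeR count was 1, Pabpc1l (adjusted p = 0.0405). All 8 fitted changes were below 0, with a median of −0.10, 3 had an unadjusted p under 0.05 (10.4% of all genes), and Dcp1a alone did not overlap between the groups (4.18%). These comparisons share the wt/fl controls.

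Neither of the comparisons among the fl/del and Spo11-Cre groups that leave wt/fl out gave a call. The fl/del Spo11-Cre oocytes differ from fl/del by the Cre together with the floxed Kif11 copy it deletes. Between these groups edgeR and DESeq2 each called 0 of the 8 genes, and 0 had an unadjusted p under 0.05. Over all genes edgeR called 0.241% and DESeq2 0.657%, and 8.32% had an unadjusted p under 0.05. Between fl/del Spo11-Cre and wt/fl Spo11-Cre, which differ in the second Kif11 allele, both tools called 0 of 8 and 1, Cnot8, had an unadjusted p under 0.05 in edgeR. Over all genes edgeR called 0.0357% and DESeq2 0.0724%, and 7.11% had an unadjusted p under 0.05. Median log2 fold changes of the 8 were −0.09 and 0.09.

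**Figure D3:**
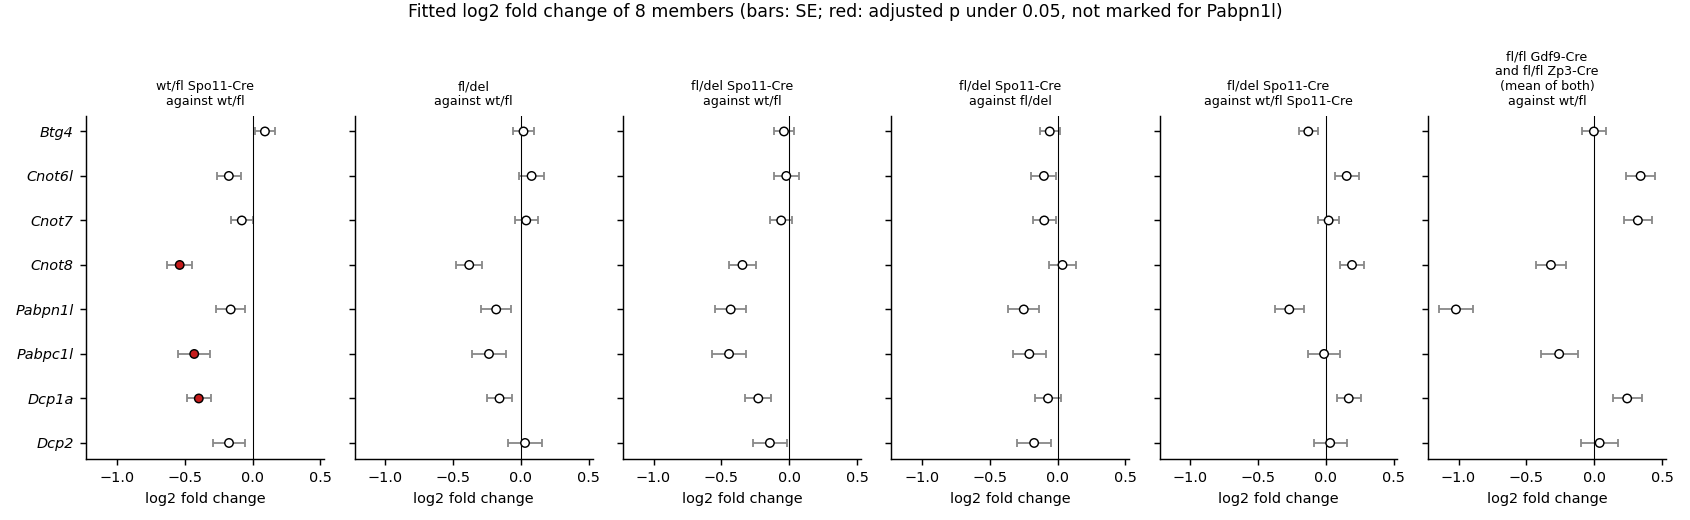
Fitted log2 fold changes (horizontal axis, bars SE) of 8 of the genes in 6 comparisons, with Zfp36l2 left out for its low counts. Red points passed an adjusted p of 0.05 and number 3, all in wt/fl Spo11-Cre against wt/fl, while no mark is given to Pabpn1l, whose largest change is −1.02 in fl/fl.

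Cnot8, a catalytic subunit of CCR4-NOT, is ENSMUSG00000020515 (GRCm38, chromosome 11, 58104153 to 58118594, plus strand). It was lower in every other group mean than in wt/fl. The 4 wt/fl libraries held 207, 213, 183 and 222 CPM and the 5 wt/fl Spo11-Cre libraries 155, 142, 137, 138 and 127 CPM. The highest Spo11-Cre library was below the lowest control. The group means were 206 ± 16.9 CPM (SD, n = 4) and 139.8 ± 9.96 CPM (SD, n = 5), and the fitted change was −0.54 on the log2 scale (SE 0.09, adjusted p = 0.000264).

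The 4 fl/del libraries held 173, 151, 158 and 143 CPM of Cnot8, also all below the controls, with a log2 fold change of −0.38 (SE 0.10) that did not pass (adjusted p = 0.183). In fl/del Spo11-Cre it was measured at 167, 141, 152 and 192 CPM, 1 library lying within the control range (log2 fold change −0.34, SE 0.10, adjusted p = 0.114). The fl/fl libraries held 178 and 159.7 CPM with Gdf9-Cre and 176 and 189.8 CPM with Zp3-Cre. Of the 13 wt/fl Spo11-Cre, fl/del and fl/del Spo11-Cre libraries, 12 were below the lowest wt/fl library for Cnot8. The share of all genes placed in this way was not computed. With Spo11-Cre, Cnot8 differed from the Cre-free oocytes by −0.54 in wt/fl and by 0.04 in fl/del (SE 0.10, adjusted p = 0.981). The test of whether these changes differ, added after seeing the data, gave 0.57 (SE 0.13, adjusted p = 0.0593), where 0.103% of all genes passed. Each change holds the Cre together with the loss of a floxed Kif11 copy.

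Cnot7 and Cnot6l did not pass in the Spo11-Cre and fl/del comparisons, with log2 fold changes between −0.18 and 0.15. Cnot7, a subunit that BTG proteins bind, held 447, 413, 489 and 429 CPM in wt/fl and 367 to 439 CPM in wt/fl Spo11-Cre, and overlapping ranges of 434 to 482 CPM in fl/del and 407 to 478 CPM in fl/del Spo11-Cre. Cnot6l held 337, 323, 295 and 283 CPM in wt/fl, 246 to 304 in wt/fl Spo11-Cre, 292 to 399 in fl/del and 285 to 332 in fl/del Spo11-Cre. Btg4, the adaptor, had log2 fold changes of 0.09 (SE 0.07, adjusted p = 0.602) in wt/fl Spo11-Cre and −0.04 (SE 0.07, adjusted p = 0.928) in fl/del Spo11-Cre against wt/fl. Its ranges overlapped in all 6 comparisons.

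Zfp36l2, the AU-rich element adaptor, was counted 4 to 50 times per library, 0.307 to 4.74 CPM, and its groups overlapped throughout. With SEs of 0.57 to 0.61 on the log2 scale, its fitted changes of −0.42 to 0.37 over the 6 comparisons were not distinguishable from 0 at this depth.

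Pabpn1l is ENSMUSG00000069867 (GRCm38, chromosome 8, 122619471 to 122622739, minus strand). It was highest in wt/fl on average. The wt/fl libraries held 902, 626, 644 and 727 CPM, the wt/fl Spo11-Cre libraries 786, 599, 525, 669 and 608 CPM and the fl/del libraries 559, 698, 652 and 613 CPM. These 3 groups overlapped, with 87.9% and 87.0% of the wt/fl mean in the other two. In fl/del Spo11-Cre the values were 541, 526, 369.6 and 721 CPM, the largest SD of the 6 groups, and averaged 74.4% of wt/fl (log2 fold change −0.43, SE 0.11).

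The fl/fl Gdf9-Cre libraries held 289.6 and 299 CPM of Pabpn1l, below each of the other 19 libraries and 40.6% ± 0.942 (SD, n = 2) of wt/fl. How many of all genes were placed in this way was not computed. With Zp3-Cre the libraries held 591 and 396 CPM, 68.1% ± 19.0 (SD, n = 2) of wt/fl. Both lay below the wt/fl range but within that of fl/del Spo11-Cre. The fitted log2 fold change against wt/fl was −1.37 (SE 0.16) for Gdf9-Cre, −0.67 (SE 0.16) for Zp3-Cre and −1.02 (SE 0.13) for the mean of both, a fold of 0.494.

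Pabpc1l, the cytoplasmic poly(A)-binding protein of oocytes, is ENSMUSG00000054582 (GRCm38, chromosome 2, 164025450 to 164050538, plus strand). It fell in wt/fl Spo11-Cre. The wt/fl libraries held 102, 148, 108 and 148 CPM and the wt/fl Spo11-Cre libraries 83.8, 97.0, 99.9, 88.0 and 92.4 CPM, so the ranges were separated by less than 2 CPM. The log2 fold change was −0.43 (SE 0.12, adjusted p = 0.0321). The call was lost without wt/fl replicate 2 (adjusted p = 0.200) or 4 (0.180) and without wt/fl Spo11-Cre replicate 1 (0.0679) or 4 (0.0770). The change was of like size but did not pass in fl/del Spo11-Cre, at 105, 78.2, 113 and 76.7 CPM (log2 fold change −0.44, SE 0.12, adjusted p = 0.112). The fl/del libraries held 113, 111, 85.1 and 114 CPM.

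Dcp1a, the decapping cofactor, is ENSMUSG00000021962 (GRCm38, chromosome 14, 30479535 to 30527063, plus strand). Each of wt/fl Spo11-Cre, fl/del and fl/del Spo11-Cre lay below wt/fl without overlap, where 4.95%, 2.99% and 4.18% of all genes did not overlap in either direction. These groups share the same controls. The highest of their libraries held 219.6 CPM and the lowest of wt/fl 220.4. The wt/fl values were 241, 225, 225 and 220.4 CPM, the tightest group relative to its mean. The wt/fl Spo11-Cre libraries held 196, 177, 168, 169 and 142 CPM, a log2 fold change of −0.40 (SE 0.09, adjusted p = 0.00736). In fl/del the values were 219.6, 207, 173 and 207 CPM (log2 fold change −0.16, SE 0.09, adjusted p = 0.638) and in fl/del Spo11-Cre 188, 179.5, 216 and 196 CPM (−0.23, SE 0.09, adjusted p = 0.401). Dcp2, the decapping enzyme itself, overlapped with wt/fl in each group, with 79.8, 59.3, 62.3 and 53.2 CPM in wt/fl, 48.6 to 63.8 CPM in wt/fl Spo11-Cre and 48.4 to 63.0 CPM in fl/del Spo11-Cre. Its log2 fold change was −0.17 (SE 0.12, adjusted p = 0.528) in wt/fl Spo11-Cre.

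Comparison of fl/fl with wt/fl set oocytes with both Kif11 copies floxed and Gdf9-Cre or Zp3-Cre against the Cre-free controls. Of the 8 genes other than Pabpn1l, 0 passed in edgeR, where 2.79% of all 23225 genes did and 1.77% were lower. DESeq2 called 3, Cnot6l, Cnot7 and Cnot8, where it called 12% of the genes it tested, and 4 of 8 had an unadjusted p under 0.05 in edgeR (14.3% of all genes). The groups did not overlap for Cnot6l and Cnot7, both higher in fl/fl, against 6.14% of all genes. The median log2 fold change of the 8 was 0.02, with 4 below 0 and 4 above.

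Cnot6l held 421 and 413 CPM with Gdf9-Cre and 491 and 348 CPM with Zp3-Cre, each above the wt/fl range (log2 fold change 0.34, SE 0.11, adjusted p = 0.0621). Cnot7 held 641 and 517 CPM and 506 and 696 CPM in the same order, also above wt/fl (0.32, SE 0.10, adjusted p = 0.0775). Cnot8 lay on the other side of 0 (−0.32, SE 0.11, adjusted p = 0.102). Against wt/fl these deadenylase subunits missed the threshold in edgeR. Without fl/fl Zp3-Cre replicate 2, Cnot6l (adjusted p = 0.00382) and Cnot8 (0.0451) passed, and Cnot7 passed without fl/fl Gdf9-Cre replicate 2 (0.0350) or fl/fl Zp3-Cre replicate 1 (0.00510).

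Set against fl/del Spo11-Cre, a comparison added after the data had been seen and in which library set, genotype and driver all differ, 3 of the 8 genes were higher in fl/fl, where 2.9% of all genes were called. They were Dcp1a (log2 fold change 0.47, SE 0.11, adjusted p = 0.00368), Cnot7 (0.38, SE 0.10, adjusted p = 0.0228) and Cnot6l (0.37, SE 0.11, adjusted p = 0.0387), and DESeq2 called the same 3. Their ranges did not overlap, against 6.35% of all genes. The fl/fl libraries are those also set against wt/fl. Dcp1a passed without any single library of these groups (highest adjusted p 0.0230). Cnot6l was lost without fl/del Spo11-Cre replicate 2, 3 or 4, either fl/fl Gdf9-Cre library or fl/fl Zp3-Cre replicate 1 (highest adjusted p 0.279). Cnot7 was lost without fl/del Spo11-Cre replicate 1, 2 or 3, fl/fl Gdf9-Cre replicate 1 or fl/fl Zp3-Cre replicate 2 (highest adjusted p 0.193).

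The drivers were set side by side after the data had been seen, with 2 libraries each. Dcp1a held 245 and 224 CPM with Gdf9-Cre, within or just above the wt/fl range, and 388 and 315 CPM with Zp3-Cre, above all other 19 libraries. How many of all genes were placed in this way was not computed. Against wt/fl it rose with Zp3-Cre (log2 fold change 0.52, SE 0.13, adjusted p = 0.0120; 2.27% of all genes called) and not with Gdf9-Cre (−0.03, SE 0.13, adjusted p = 0.999; 1.48%). The call with Zp3-Cre was lost without fl/fl Zp3-Cre replicate 1 (0.41, SE 0.15, adjusted p = 0.337). The direct test of Zp3-Cre against Gdf9-Cre did not pass (0.55, SE 0.15, adjusted p = 0.0574). Pabpc1l held 115 and 71.0 CPM with Gdf9-Cre and 134 and 138 CPM with Zp3-Cre, and that difference did not pass either (0.52, SE 0.19, adjusted p = 0.339). Pabpn1l was higher with Zp3-Cre than with Gdf9-Cre by 0.70 (SE 0.18). Dcp2 held 80.6 and 65.8 CPM and 76.9 and 56.1 CPM, within or near the wt/fl range.

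Ordered by group mean, few neighbouring groups differed by more than the larger of their SDs. For Pabpn1l the order ran from wt/fl to wt/fl Spo11-Cre, then from fl/del down to fl/del Spo11-Cre and last to the fl/fl oocytes, Zp3-Cre before Gdf9-Cre, and only the step between these drivers exceeded the SD. Dcp1a ran from fl/fl Zp3-Cre (351 ± 52.0 CPM) through fl/fl Gdf9-Cre (235 ± 15.4), wt/fl (228 ± 8.88), fl/del (202 ± 19.9) and fl/del Spo11-Cre (195 ± 15.7) to wt/fl Spo11-Cre (170.4 ± 19.6), where the steps below fl/fl Zp3-Cre, below wt/fl and above wt/fl Spo11-Cre exceeded the SD. For Cnot6l and Cnot7 the step from the fl/fl groups down to fl/del exceeded the SD, as did that from fl/del Spo11-Cre to wt/fl Spo11-Cre for Cnot6l. For Cnot8 the steps from wt/fl to fl/fl Zp3-Cre, from there to fl/fl Gdf9-Cre and from fl/del to wt/fl Spo11-Cre did. Btg4, Zfp36l2, Pabpc1l and Dcp2 had no step of that size.

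A wider list of 89 other genes of mRNA decay, of which 83 were tested, holds other CCR4-NOT subunits, the BTG and TOB family, other deadenylases, RNA-binding adaptors, poly(A)-binding proteins and their partners, decapping and 5′ decay factors, and the exosome with the uridylating enzymes. In wt/fl Spo11-Cre against wt/fl 1 of 83 genes fell and 0 rose, where 2.19% of all genes were called, and 18 of 83 had an unadjusted p under 0.05, where 15% of all genes did. The median log2 fold change was 0.03. This gene, named after its values were seen, was Dis3l, a cytoplasmic exosome nuclease, at 51.4 to 79.9 CPM against 79.7 to 102 (log2 fold change −0.46, SE 0.12, adjusted p = 0.0204), and the ranges met. The call was lost without wt/fl replicate 2 or without wt/fl Spo11-Cre replicate 2 or 5, and the count was 2 without wt/fl replicate 3 and 3 without wt/fl Spo11-Cre replicate 1. Without fl/del replicate 1 or 2 or wt/fl Spo11-Cre replicate 5, 1 gene passed for fl/del Spo11-Cre set against fl/del. edgeR called 0 of 83 in the other Spo11-Cre and fl/del comparisons, where 0.0223 to 0.241% of all genes were called. An unadjusted p under 0.05 was found for 11 of 83 in fl/del (8.52% of all genes) and 16 in fl/del Spo11-Cre (10.4%), both against wt/fl. For fl/del Spo11-Cre it was found for 9 against fl/del (8.32%) and 5 against wt/fl Spo11-Cre (7.11%). DESeq2 called 0, 2, 0 and 0 in these comparisons, in that order, where it called 0.255%, 1.56%, 0.657% and 0.0724% of genes.

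In fl/fl against wt/fl 1 of the 83 genes of the wider list rose and 2 fell, where 2.79% of all genes were called, with a median of −0.01 beside −0.03 for all genes. Paip2b, which encodes an inhibitor of the cytoplasmic poly(A)-binding protein, held 105 to 203 CPM against 73.7 to 82.2 (log2 fold change 0.70, SE 0.13, adjusted p = 0.000231). Exosc10, a nuclear exosome nuclease, held 31.9 to 57.2 CPM against 62.4 to 65.5 (−0.57, SE 0.15, adjusted p = 0.0163). Exosc7, an exosome core subunit named after its values were seen, held 158 to 192 CPM against 186 to 222 (−0.36, SE 0.10, adjusted p = 0.0446). The 3 calls became 1 without fl/fl Gdf9-Cre replicate 2 or fl/fl Zp3-Cre replicate 1, and 9 without fl/fl Zp3-Cre replicate 2. Of the 17 exosome and uridylation genes tested, 14 were below 0 and 3 above, with a median of −0.11, whereas the 21 decapping and 5′ decay genes had a median of 0.00 and the 9 other CCR4-NOT subunits 0.04. The 11 poly(A)-binding genes had a median of 0.17, the 13 adaptors −0.01, the 7 other deadenylases 0.06 and the 5 BTG and TOB genes 0.07. The share of all genes below 0 was not computed. In wt/fl Spo11-Cre against wt/fl, 12 of the exosome and uridylation genes were above 0 and 5 below. Other groups of genes also leaned to 1 side, as in fl/del Spo11-Cre against wt/fl, where all 7 other deadenylases were below 0.

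**Figure D4:**
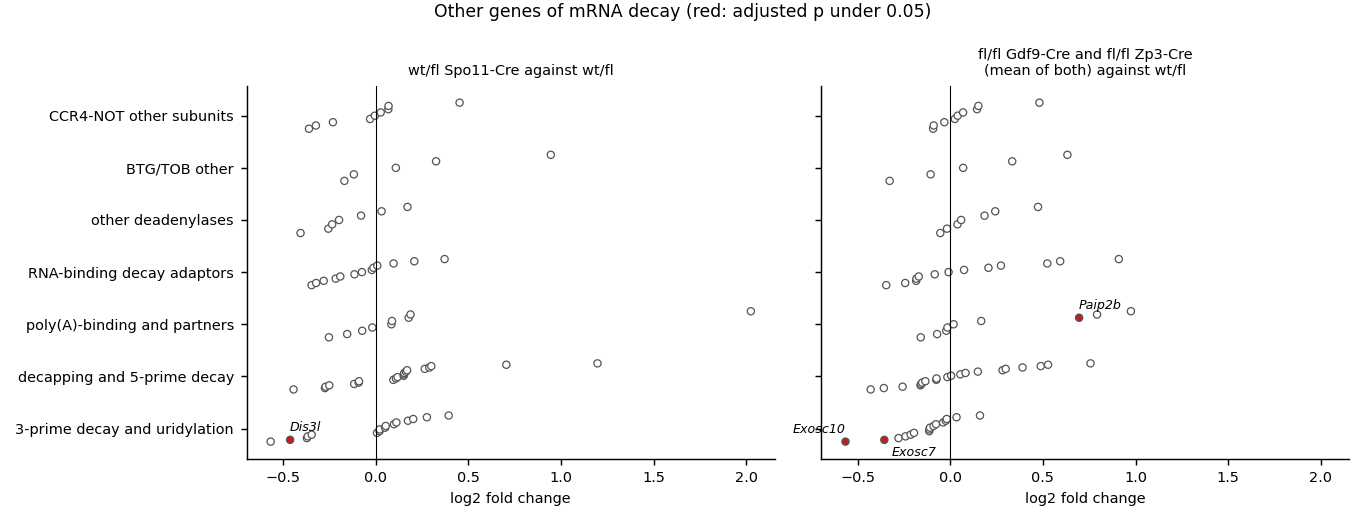
Log2 fold change (horizontal axis) of the 79 genes of the wider list with a mean count of at least 10, by functional group, in wt/fl Spo11-Cre against wt/fl (left) and fl/fl against wt/fl (right). Red points passed an adjusted p of 0.05: 1 gene on the left, Dis3l, and 3 on the right, Paip2b above 0 and Exosc10 and Exosc7 below.

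Genes whose pattern was most like that of Pabpn1l were ranked by Pearson's r of log2(CPM + 1) over the 21 libraries among 7754 genes, as a description of points that share libraries and groups. The closest were Fam168b (r = 0.787), Borcs5 (0.779) and Zc3h3 (0.777), and with group means removed r was 0.635, 0.416 and 0.443. Zc3h3, which encodes a zinc finger protein of mRNA polyadenylation and export, averaged 15.8 CPM in wt/fl, 5.10 in fl/fl Gdf9-Cre and 8.76 in fl/fl Zp3-Cre. Borcs5 averaged 189, 139 and 163 CPM and Fam168b 43.5, 27.1 and 39.7 CPM in the same groups. Of the other 7 decay genes compared, Cnot8 came nearest to Pabpn1l with r = 0.137, rank 2208. For Btg4 the closest were Calm2 (r = 0.866, and 0.898 with group means removed), Mphosph6 (0.794 and 0.819) and Mrps31 (0.761 and 0.718).

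**Figure D5:**
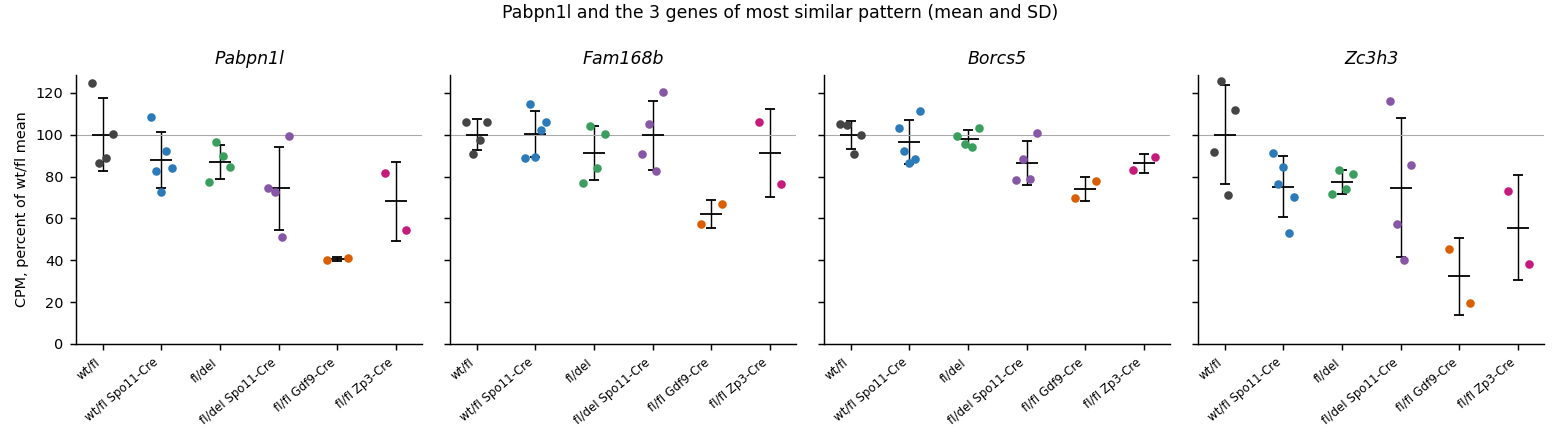
CPM as a percentage of the wt/fl mean (vertical axis) of Pabpn1l and the 3 genes of most similar pattern in every library (points), by group, with mean and SD. All 4 genes are lowest on average in fl/fl Gdf9-Cre, where Pabpn1l stands at 40.6% of wt/fl. The other 3 were chosen for likeness to Pabpn1l over these same libraries, so the shared low follows from that choice.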

How the data were processed

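SMART-seq v4 cDNA (13 cycles of amplification) of 3 GV oocytes per library was sequenced in 150-bp pairs. Per the study's methods and the submitters' processing notes, the authors used fastp for trimming, HISAT2 2.2.1 for alignment to GRCm38, and featureCounts 2.0.3 to count uniquely mapped reads per Ensembl 93 gene. The deposited counts over all exons of 21 libraries were the main values. They were 1.95 times those of a second deposited table in which Kif11 was counted over exon 22 alone. Another table, for exon 1, was not used here, and the methods describe 17 of the libraries. The authors' deposited TPM values were used for levels between genes. There were no molecular identifiers, so counts include PCR copies.

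Ensembl IDs were matched to symbols with GENCODE M21 (GRCm38). CPM, the count per 1000000 counts of a library, was computed from the deposited counts. Genes counted in 3 or more libraries were tested with edgeR 4.0.16 (limma 3.58.1, R 4.3.3): TMM library sizes, the quasi-likelihood F test, group as the only term, and Benjamini-Hochberg adjusted p under 0.05 over all genes. A fit of 17 libraries served the wt/fl, fl/del and Spo11-Cre groups, and a fit of all 21 the fl/fl groups, whose spread is taken from all groups. DESeq2 1.42.0, other library sizes, filters and sample sets, and leaving out each library were alternatives. DESeq2 shares are of the genes its independent filter kept. Scripts were tested on simulated data. The members and lists were chosen with earlier results of these data known. Named were the 9 genes, Kif11, paralogs, the wider-list genes past the threshold with a mean count of at least 10 and no overlap (up to 3 per direction), and the 3 genes closest in pattern to Pabpn1l and Btg4. Libraries of a group differed by more than counting noise (chi-square per degree of freedom of 5.27 to 18.5 over 30 pairs).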

Additional observations from a re-analysis of the deposited data

Results flagged for a closer look

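Each gene was screened in each group of 4 or 5 libraries for a library far from the rest, by Dixon's ratio. Of 36 sets, 3 held such a library, where chance gives about 1 in 20. Cnot6l stood at 398.5 CPM in fl/del replicate 4, and the other 3 fl/del libraries at 292 to 302 CPM. Cnot7 stood at 478 CPM in fl/del Spo11-Cre replicate 4, and the other 3 at 407 to 415 CPM. Pabpc1l stood at 85.1 CPM in fl/del replicate 3, the fl/del library with the fewest counts (7205010), and the other 3 at 111 to 114 CPM.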

How the results depend on the processing

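Counts of decay genes here leave out Pabpn1l, which was selected on its level, unless 9 genes are named. In wt/fl Spo11-Cre against wt/fl, 3 of the other 8 were called, and 2 to 3 when single libraries were left out. Cnot8 and Dcp1a passed under every alternative tried (highest adjusted p 0.00317 and 0.0366), and Pabpc1l also missed under edgeR's filterByExpr (0.0528) and with all 21 libraries in the fit (0.0855). The wider list went from 1 call to 6 in DESeq2, 2 with no filter and 0 with all 21 libraries (0 to 3 without single libraries). Against wt/fl, fl/del Spo11-Cre went from 0 of the 8 to 1 in DESeq2, Cnot8, and to Pabpc1l alone with no filter (0 to 1 without single libraries). Its wider list went to 2 in DESeq2. The 0 of fl/del became 1 in DESeq2. For fl/del Spo11-Cre set against fl/del the wider list went from 0 to 1 with no filter (0 to 1 without single libraries). For fl/fl the 0 of 8 was 1 with RLE size factors, 3 in DESeq2, 1 with filterByExpr and 1, Dcp1a, for Zp3-Cre alone, an alternative chosen after seeing the data (calls gained without single libraries are given above). Cnot6l passed under the first 3 of these (adjusted p = 0.0458, 0.00900 and 0.0439), Cnot7 and Cnot8 in DESeq2 (0.0138 and 0.0277). Its wider list went from 3 to 8 in DESeq2, 5 with no filter, 1 with only the groups compared and 8 for Zp3-Cre alone (1 to 9 without single libraries). Against fl/del Spo11-Cre, 3 of the 8 were called in fl/fl, and DESeq2 called the same 3. Of these, Dcp1a alone stayed called whichever single library was left out. Cnot6l and Cnot7 were both lost without fl/del Spo11-Cre replicate 2 or 3, among other libraries given above. With the selected gene Pabpn1l included, the counts were 4 of 9, 4 in DESeq2 and 2 to 3 without single libraries. The log2 fold change of Pabpn1l in fl/fl ranged from −1.14 to −0.89 without single libraries. The median of the 9 as a percent of wt/fl CPM was 103 for Gdf9-Cre and 107 for Zp3-Cre, but 97.9 and 100.003 on TMM and 98.7 and 101.5 on RLE sizes (98.2 to 105 and 107 to 114 without single libraries), and 100.1 for fl/del (88.8 to 101). No result changed sign past the threshold. Over all genes, the 194 higher and 297 lower calls of wt/fl Spo11-Cre became 389 and 542 in DESeq2, 336 and 406 with no filter and 80 and 172 with all 21 libraries, and the 237 and 410 of fl/fl became 440 and 669 in DESeq2 and 116 and 122 with only the groups compared. The cause of these moves was not tested.

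Replicate numbers shared between groups were not taken as pairs: over 42 pairs of groups and numbers the correlation of deviations ran from −0.34 to 0.27, above 0.1 in 8. With a replicate block, fl/del against wt/fl went from 0 to 1 of the 8 (Cnot8, adjusted p = 0.0276). In fl/del Spo11-Cre against wt/fl Cnot8 and Pabpc1l passed, where 0 of the 8 had without the block. The wider list went from 0 to 1 for fl/del Spo11-Cre set against fl/del and from 3 to 8 in fl/fl. The block moved the calls over all genes from 2 higher and 3 lower to 47 and 49 in fl/del, and from 28 and 16 to 133 and 97 in fl/del Spo11-Cre, both against wt/fl.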
